A study of Mus musculus with 6 samples.

Results

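The p38 kinase module of the mouse colonic mucosa was followed at the transcript level across 10 genes: the 4 p38 kinase genes Mapk14, Mapk11, Mapk12 and Mapk13, the activator genes Map2k3 and Map2k6, and the downstream kinase genes Mapkapk2, Mapkapk3, Mapkapk5 and Rps6ka5. Members were chosen by name, as every array probe set that the platform annotation assigns to 1 of these genes alone. This gave 21 of the 45101 probe sets on the array. A further 4 probe sets that name Mapkapk5 together with Adam1a were not used. The tissue was colonic mucosa of C57BL/6 mice with the genotype label p38a-knockout (3 arrays, A to C) or wildtype (3 arrays, A to C), untreated in both groups, and the cell type label names intestinal epithelial cells. No source used here gives the knocked-out allele, any Cre driver, the age of the mice or whether each array stands for a separate animal, so p-values measure only the spread between these arrays, which may be technical.

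p38 kinases are stress-activated mitogen-activated protein kinases that the dual-specificity kinases MKK3 (Map2k3) and MKK6 (Map2k6) switch on by phosphorylating a threonine and a tyrosine in the activation loop. Active p38α, the product of Mapk14, and p38β, the product of Mapk11, phosphorylate further kinases, among them MK2 and MK3, which control the stability and translation of inflammatory mRNAs, and MSK1, which acts on chromatin and on CREB-type transcription factors. In the gut epithelium of mice, p38α has been studied for its part in cell renewal, barrier function and inflammation. Regulation by phosphorylation is not visible on an expression array, which reads transcript signal only.

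Values are log2(signal + 16) after quantile normalisation, unless the deposited signal is named, and a difference is the mean of the arrays labelled p38a-knockout minus the mean of the wildtype arrays. On this scale a value of about 4 is the bottom, and differences of dim probe sets are understated. Probe sets whose mean lay under the 40th percentile of all probe sets, a signal of about 18.4, were not tested. This filter kept 16 of the 21 member probe sets, from 9 of the 10 genes. An adjusted p is from limma over the 27002 probe sets above the filter, and an interval is limma's 95% interval of the difference, not adjusted for the number of probe sets. Fewer cells of a type and less RNA per cell cannot be told apart in such tissue samples.

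The arrays were not equally bright or of equal RNA quality. Deposited signals had a 2% trimmed mean of 192 to 222 in the arrays labelled p38a-knockout, against 141, 188 and 117 in wildtype A, B and C. For the Gapdh control, the signal at the 3′ end over that at the 5′ end grows with RNA degradation. This Gapdh ratio was 0.859 to 0.954 in the arrays labelled p38a-knockout, against 1.10, 0.989 and 1.45 in wildtype A, B and C. The same ratio of the Actb control was 1.82 to 2.27 in the arrays labelled p38a-knockout. It was 2.40, 2.24 and 3.25 in wildtype A, B and C, so on Actb wildtype A lay close to the other arrays. In trimmed mean and Gapdh ratio wildtype A and C thus lay further from the knockout-labelled arrays than wildtype B did. On Gapdh wildtype A lay nearer to wildtype B than to wildtype C. The median deposited signal was 34.8 to 37.0 in the arrays labelled p38a-knockout, against 27.1, 29.9 and 27.0 in wildtype A, B and C. By the median wildtype B was thus dim too, and it is not a control of equal brightness. Results are given below with and without wildtype A and C. Without wildtype A and C the control is a single array, wildtype B. Every knockout-labelled Gapdh ratio lay below every wildtype one, so a model with this ratio cannot separate RNA quality from the genotype label. The cause of changes in size or sign in these settings was not tested. Wildtype B stood apart in other ways. Of the 6 listed markers of acinar pancreas 4 had a probe set, and wildtype B was the highest array on 3 of them. Prss2, a trypsinogen gene, read 7.67 in wildtype B and at most 5.23 on the other arrays, Ctrb1 6.84 and at most 4.97, and Cpa1 6.42 and at most 4.34. The mean of the 3 tested B and plasma cell markers was 9.18, 10.62 and 10.07 in knockout-labelled A, B and C, against 10.68, 8.48 and 10.60 in wildtype A, B and C, lowest in wildtype B. All 12 listed markers of colonic epithelium, Epcam, Vil1 and Cdx2 among them, lay above the filter, with differences of -0.25 to 0.09 between the groups. Of 6 tested T and NK cell markers 6 had lower means in the arrays labelled p38a-knockout, and the mean of the list was 6.97, 8.13 and 7.56 in knockout-labelled A, B and C, against 8.29, 7.27 and 9.29 in wildtype A, B and C. Of 8 tested smooth muscle and fibroblast markers 4 had higher and 4 lower means in the arrays labelled p38a-knockout. Tagln stood at 1.04 with no overlap between the groups (limma adjusted p = 0.915). Actg2 at 0.72, Acta2 at 0.56, Col1a1 at 0.015, Lum at -0.0019, Des at -0.06, Col3a1 at -0.25 and Dcn at -0.65 overlapped. Below the filter Myh11 stood at 0.71 and Cnn1 at 0.92. The part of these differences in the values below was not tested.

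No member of the p38 module passed at an adjusted p of 0.05, as none of all 27002 tested probe sets did (0%). Of the 16 tested member probe sets, 7 had a positive and 9 a negative difference, where 53.6% of all probe sets tested had a positive one. Their median was -0.037, against 0.023 over all probe sets tested. At an unadjusted p under 0.05 there were 2 members (12.5%), a Mapk14 and a Map2k6 probe set, both higher, against 3.53% of all probe sets tested (1.7% higher and 1.82% lower). The groups did not overlap for 3 members (18.8%), 2 higher and 1 lower, against 8.74% of all probe sets (4.75% higher and 4% lower). Since 5 of the 16 probe sets read Mapk14, these counts do not rest on independent genes. On the deposited signals with no scaling between arrays, the 15 members above the filter had positive differences, where the median of all probe sets was 0.40. Mapk12 1447823_x_at fell below the filter there, at -0.37. The intervals of 12 of the 16 lay wholly between -1 and 1, and the other 4 reached beyond.

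**Figure D1:**
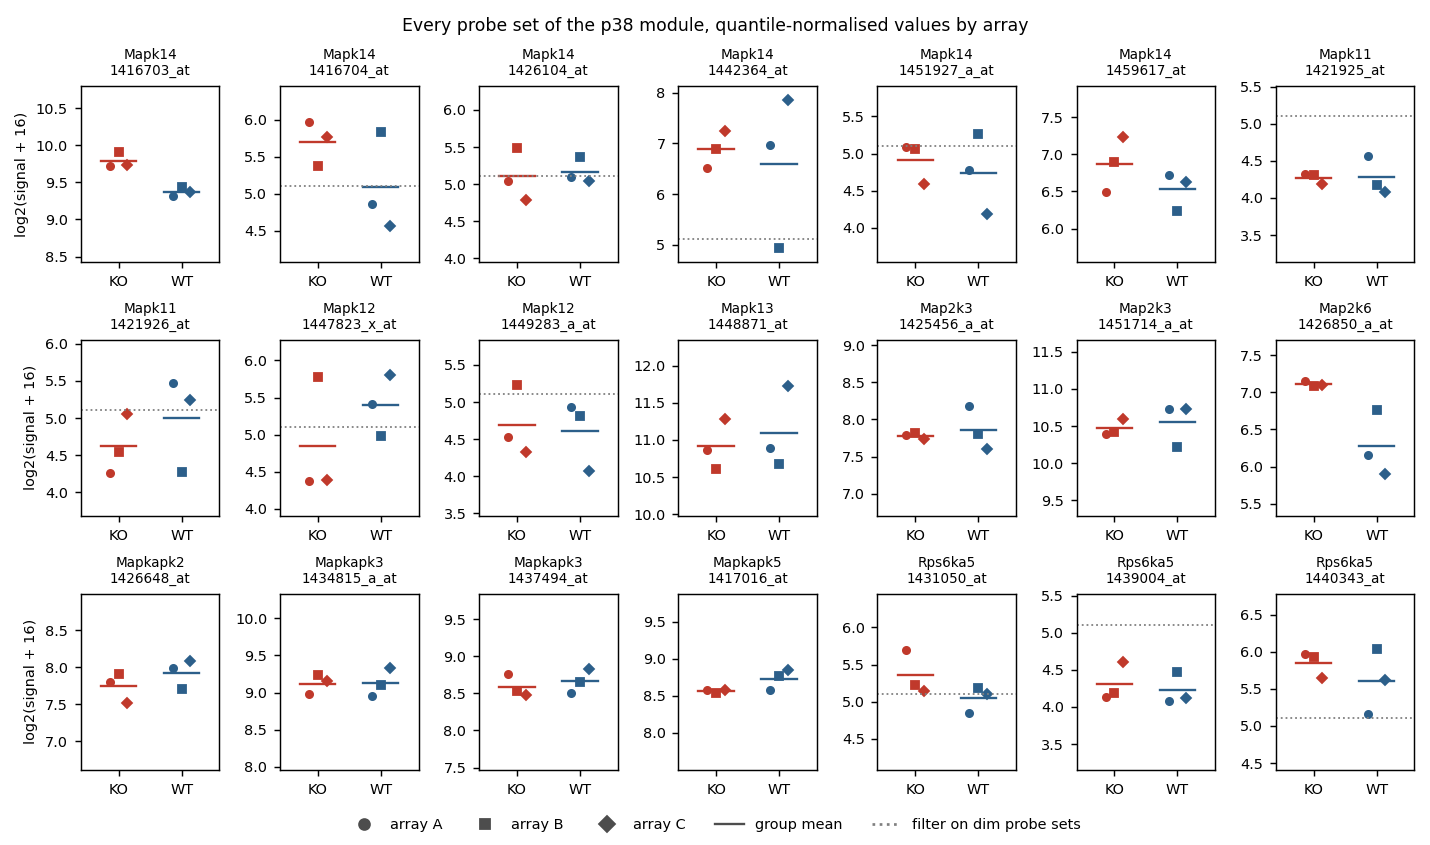
Values of all 21 member probe sets by array, with the 3 arrays labelled p38a-knockout (KO) left of the 3 wildtype arrays (WT) in each panel. The vertical axis is log2(signal + 16) after quantile normalisation, each with its own range, symbols mark arrays A, B and C, short lines are group means and the dotted line is the filter on dim probe sets. The first Mapk14 panel and the Map2k6 panel show all knockout-labelled arrays above all wildtype arrays.

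Mapk14, which encodes p38α, is the gene the genotype label names, and 5 of its 6 probe sets had a higher mean in the arrays labelled p38a-knockout, none of them called. Its brightest probe set, 1416703_at, had deposited signals of 1096, 1049.9 and 979.9 in knockout-labelled A, B and C, against 494, 750.4 and 414 in wildtype A, B and C. After normalisation it read 9.72, 9.91 and 9.73 in the arrays labelled p38a-knockout, against 9.31, 9.44 and 9.37 in wildtype. All 3 knockout-labelled arrays were above all 3 wildtype arrays. The means were 9.79 ± 0.11 in the arrays labelled p38a-knockout and 9.37 ± 0.06 in wildtype (SD, n = 3 each), a difference of 0.41 (SE 0.15, limma adjusted p = 0.915). This is 1.33-fold, with an interval of 1.05-fold to 1.69-fold. The exact two-sided permutation p was 0.1, the smallest that 3 against 3 arrays can give.

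The direction of this probe set was the same without wildtype A and C. With wildtype B as the only control its difference was 0.35, with the Gapdh ratio in the model 0.42, and with each array left out in turn 0.35 to 0.45. Its unadjusted limma p was 0.024 in the main setting and 0.075 with the Gapdh ratio in the model. The positions of the probe sets against the deleted part of the gene were not used here, and a probe set outside that part checks nothing about the knockout. Whether the higher signal goes against the label is therefore not known, and the samples are called by their label throughout. Whether the labels are exchanged was not tested, and an exchange would turn the sign of every difference given here.

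The other 5 Mapk14 probe sets overlapped between the groups. Probe set 1416704_at read 5.97, 5.37 and 5.77 in knockout-labelled A, B and C, against 4.87, 5.83 and 4.57 in wildtype A, B and C. Wildtype B lay within the knockout-labelled range, and the difference was 0.62 (SE 0.34, limma adjusted p = 0.915). With wildtype B as the only control it turned to -0.12, with the Gapdh ratio in the model to -0.11, and it ran from 0.36 to 0.99 with each array left out in turn.

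Probe set 1459617_at read 6.49, 6.90 and 7.23 in the arrays labelled p38a-knockout, against 6.72, 6.24 and 6.63 in wildtype, a difference of 0.34 (SE 0.25, limma adjusted p = 0.915). Probe set 1442364_at read 6.51, 6.89 and 7.24 in the arrays labelled p38a-knockout, against 6.97, 4.93 and 7.86 in wildtype A, B and C. The single low array was wildtype B, and it set the value: the difference was 0.29 with all arrays, -0.54 without wildtype B and 1.95 with it as the only control.

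The remaining Mapk14 probe sets were dim. Probe set 1426104_at read 5.04, 5.49 and 4.79 in the arrays labelled p38a-knockout, against 5.09, 5.37 and 5.04 in wildtype, close to the filter, with an interval of -0.61 to 0.48. Probe set 1451927_a_at, below the filter, read 5.09, 5.07 and 4.59 in the arrays labelled p38a-knockout, against 4.78, 5.27 and 4.18 in wildtype (exact two-sided permutation p = 0.7).

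The 5 genes whose values followed the brightest Mapk14 probe set most closely were Aldoc, Cdc14b, Cd47, Cryz and Fmo4. Likeness was the mean absolute difference between the centred log2 values over the 6 arrays, which was 0.050 for Aldoc and up to 0.054 for the others, against a median of 0.27 over the 12436 genes compared. Aldoc, which encodes a brain-type aldolase, read 8.48, 8.71 and 8.63 in the arrays labelled p38a-knockout, against 8.13, 8.14 and 8.12 in wildtype. Cdc14b, which encodes a phosphatase of the cell cycle, read 8.32, 8.55 and 8.36 in the arrays labelled p38a-knockout, against 7.83, 8.14 and 7.92 in wildtype. The search ran over all tested genes on 6 arrays, so the likeness is a description, and none of these genes passed in limma.

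The paralogous kinase genes gave no call. In the RefSeq gene table for GRCm38.p6 they form a pair of neighbours each, Mapk14 beside Mapk13 on chromosome 17 and Mapk12 beside Mapk11 on chromosome 15. Mapk13, which encodes the p38δ isoform found in many epithelia, read 10.86, 10.60 and 11.28 in knockout-labelled A, B and C, against 10.89, 10.68 and 11.72 in wildtype A, B and C. Array C was the highest in both groups, and the groups overlapped. The difference was -0.18 (SE 0.28, limma adjusted p = 0.924), with an interval of -0.83 to 0.46. It turned to 0.13 without wildtype C, to 0.24 with wildtype B as the only control and to 0.36 with the Gapdh ratio in the model.

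Mapk12, which encodes the p38γ isoform known mainly from skeletal muscle, lay near the bottom of the scale. Probe set 1447823_x_at, whose suffix marks possible cross-hybridisation, read 4.38, 5.78 and 4.39 in knockout-labelled A, B and C, against 5.42, 4.98 and 5.81 in wildtype A, B and C. Knockout-labelled B lay with the wildtype arrays, and the difference of -0.55 (SE 0.40, limma adjusted p = 0.915) changed to -1.02 without it. With wildtype B as the only control the difference was -0.13, and with the Gapdh ratio in the model it turned to 0.13. The other Mapk12 probe set, 1449283_a_at, was below the filter and read 4.52, 5.23 and 4.32 in the arrays labelled p38a-knockout, against 4.93, 4.82 and 4.08 in wildtype. Among skeletal muscle markers Ckm and Acta1 were above the filter and Tnnt3 and Myh4 below it, and the mean of the 3 tested ones was 5.99, 6.09 and 6.40 in knockout-labelled A, B and C, against 6.28, 6.14 and 6.40 in wildtype A, B and C.

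Mapk11, the p38β gene, was the only member with no probe set above the filter. Its probe set 1421925_at read 4.33, 4.31 and 4.18 in the arrays labelled p38a-knockout, against 4.57, 4.18 and 4.08 in wildtype, all close to the bottom value of the scale. The deposited signals behind these values were 4.23, 4.18 and 2.38 in the arrays labelled p38a-knockout, against 6.87, 1.87 and 0.949 in wildtype. Probe set 1421926_at read 4.26, 4.54 and 5.06 in the arrays labelled p38a-knockout, against 5.47, 4.27 and 5.24 in wildtype (exact two-sided permutation p = 0.4). A change in the p38β transcript was not detectable at these signals.

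Map2k6, which encodes the p38 activator MKK6, had the smallest p of all members. Its 1 probe set, 1426850_a_at, read 7.15, 7.08 and 7.10 in knockout-labelled A, B and C, against 6.15, 6.76 and 5.89 in wildtype A, B and C. The knockout-labelled arrays lay close together, above all wildtype arrays. The means were 7.11 ± 0.03 in the arrays labelled p38a-knockout and 6.27 ± 0.45 in wildtype (SD, n = 3 each), a difference of 0.84 (SE 0.25, unadjusted p = 0.00895, limma adjusted p = 0.915). This is 1.79-fold, with an interval of 1.21-fold to 2.66-fold (exact two-sided permutation p = 0.1). The gap to wildtype B was the smallest: with wildtype B as the only control the difference was 0.35 and with the Gapdh ratio in the model 0.37. In the model with the Gapdh ratio its unadjusted limma p was 0.223.

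Map2k3, which encodes the other main p38 activator, MKK3, gave overlapping values. Its brightest probe set, 1451714_a_at, read 10.39, 10.43 and 10.59 in the arrays labelled p38a-knockout, against 10.73, 10.22 and 10.73 in wildtype. The other, 1425456_a_at, read 7.79, 7.82 and 7.74 in the arrays labelled p38a-knockout, against 8.18, 7.81 and 7.60 in wildtype. The differences were -0.09 (interval -0.50 to 0.31) and -0.08 (interval -0.54 to 0.39). Whether Map2k3 and Map2k6 differ from each other in their change was not tested.

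**Figure D2:**
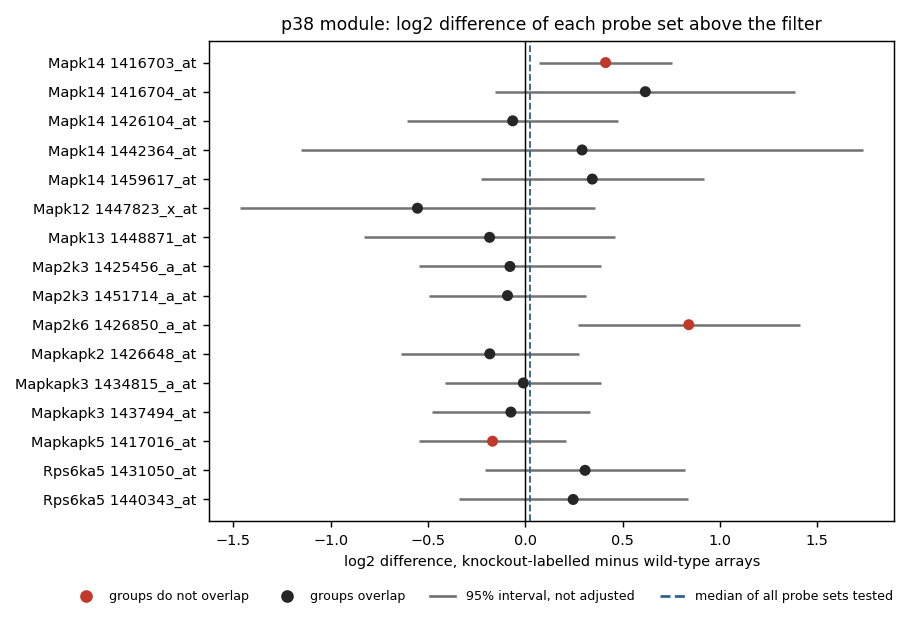
Log2 difference, arrays labelled p38a-knockout minus wildtype arrays, for the 16 member probe sets above the filter. Points are differences, horizontal lines limma's 95% intervals without adjustment, red points mark groups that do not overlap, and the dashed line is the median of all probe sets tested, 0.023. The intervals of Mapk14 1416703_at and Map2k6 lie to the right of 0, and those of the 4 probe sets of Mapkapk2, Mapkapk3 and Mapkapk5 all include 0.

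None of the downstream kinase genes was called. Mapkapk2 encodes MK2, which acts on the mRNA-binding protein of Zfp36 and on the small heat shock protein of Hspb1. It read 7.80, 7.91 and 7.52 in the arrays labelled p38a-knockout, against 7.99, 7.70 and 8.09 in wildtype, a difference of -0.18 (SE 0.20, limma adjusted p = 0.915). Its interval of -0.64 to 0.27 runs from 0.642-fold to 1.21-fold. The sign turned with wildtype B as the only control (0.040), with the Gapdh ratio in the model (0.081) and on the deposited signals (0.31). On the deposited signals the median of all probe sets was 0.40, so Mapkapk2 lay below it.

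Mapkapk3 encodes the related kinase MK3. Probe set 1434815_a_at read 8.98, 9.23 and 9.15 in the arrays labelled p38a-knockout, against 8.95, 9.10 and 9.34 in wildtype, a difference of -0.01 with an interval of -0.41 to 0.39. Probe set 1437494_at read 8.76, 8.53 and 8.48 in the arrays labelled p38a-knockout, against 8.51, 8.65 and 8.83 in wildtype, a difference of -0.07 with an interval of -0.48 to 0.33. The groups overlapped on both.

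Mapkapk5, which encodes MK5 (also called PRAK), read 8.58, 8.54 and 8.57 in knockout-labelled A, B and C, against 8.58, 8.77 and 8.84 in wildtype A, B and C. The groups did not overlap, but knockout-labelled A and wildtype A were equal to 2 decimals. The difference was -0.17 (SE 0.17, limma adjusted p = 0.915) (exact two-sided permutation p = 0.1). Leaving out each array in turn gave -0.24 to -0.11, wildtype B as the only control -0.21 and the Gapdh ratio as a covariate -0.093. The sign turned on the deposited signals, at 0.35, and with arrays centred on their medians, at 0.11. The medians of all probe sets were 0.40 and 0.16 there, so Mapkapk5 stayed below them.

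Rps6ka5, the MSK1 gene, had positive differences on all 3 of its probe sets, none of them called. Probe set 1431050_at read 5.69, 5.22 and 5.15 in the arrays labelled p38a-knockout, against 4.85, 5.18 and 5.11 in wildtype, a difference of 0.31 (SE 0.22, limma adjusted p = 0.915), which ran from 0.14 to 0.41 with each array left out in turn. Probe set 1440343_at read 5.97, 5.93 and 5.65 in knockout-labelled A, B and C, against 5.16, 6.03 and 5.62 in wildtype A, B and C, a difference of 0.25. This ran from 0.024 to 0.46 with each array left out in turn, the low end without wildtype A, and turned to -0.18 with wildtype B as the only control. The third, 1439004_at, was below the filter at 4.14, 4.19 and 4.60 in the arrays labelled p38a-knockout, against 4.08, 4.48 and 4.12 in wildtype. The groups overlapped on all 3.

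**Figure D3:**
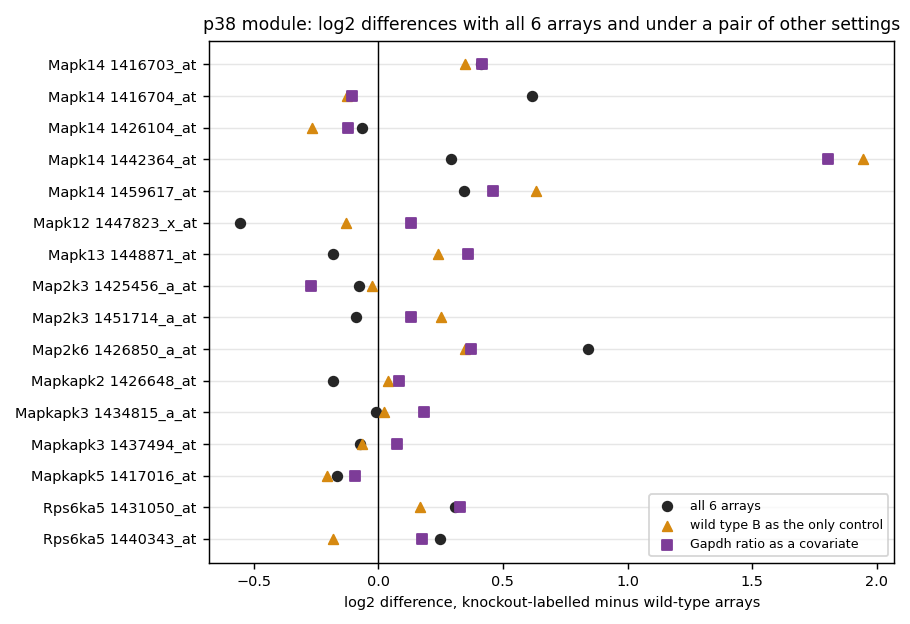
Log2 differences, arrays labelled p38a-knockout minus wildtype arrays, of the 16 member probe sets above the filter with all 6 arrays (circles), with wildtype B as the only control (triangles) and with the Gapdh 3′ to 5′ ratio as a covariate (squares). Mapk14 1416703_at stays between 0.35 and 0.42, Map2k6 moves from 0.84 to 0.35 and 0.37, and Mapk14 1442364_at moves from 0.29 to 1.95 and 1.80.

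Around the module, 63 genes of the p38 pathway were listed by role, of which 56 were tested on their brightest probe set. None was called, with 21 positive and 35 negative differences and a median of -0.053. At an unadjusted p under 0.05 there were 5 genes, 1 higher and 4 lower, against 3.88% of the 12437 genes tested (1.7% higher and 2.17% lower). The groups did not overlap for 7 of the 56, against 9.06% of those genes.

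Upstream, 22 MAP3K, adaptor and inducer genes had 8 positive and 14 negative differences, with a median of -0.083. Gadd45a, a stress-inducible gene whose product binds the p38-activating kinase MEKK4, read 9.52, 9.72 and 9.91 in the arrays labelled p38a-knockout, against 9.27, 8.98 and 9.29 in wildtype. All knockout-labelled arrays were above all wildtype arrays. The difference was 0.54 (SE 0.18, limma adjusted p = 0.915), and 0.74 with wildtype B as the only control and 0.66 with the Gapdh ratio in the model. Map3k2, the MEKK2 gene, had a difference of 0.25 with no overlap between the groups, but of 0.0028 with the Gapdh ratio in the model. On the lower side Traf2, a TNF receptor adaptor gene, stood at -0.42 and Map3k3, the MEKK3 gene, at -0.39, both overlapping. With the Gapdh ratio in the model they stood at 0.028 and -0.014. On the deposited signals they stood at 0.0085 and 0.046, both below the median of all probe sets there, 0.40.

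Of 8 tested phosphatase genes 2 had positive and 6 negative differences, with a median of -0.13. Dusp1, whose product inactivates p38, read 8.26, 8.63 and 8.17 in knockout-labelled A, B and C, against 9.66, 8.32 and 10.33 in wildtype A, B and C. Wildtype B lay among the knockout-labelled arrays and wildtype A and C stood above them. The difference of -1.09 (SE 0.44, limma adjusted p = 0.915) turned to 0.029 with wildtype B as the only control and to 0.071 with the Gapdh ratio in the model. Dusp10, which encodes a p38 and JNK phosphatase, read 6.38, 6.81 and 6.40 in knockout-labelled A, B and C, against 7.53, 6.25 and 7.62 in wildtype A, B and C. Wildtype A and C were the highest arrays and wildtype B the lowest. Its difference of -0.61 turned to 0.28 and 0.14 in these settings. On the positive side Dusp16 stood at 0.074 and Dusp4 at 0.0049.

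Of 18 tested downstream kinase and substrate genes 9 had positive and 9 negative differences, with a median of -0.0047. Zfp36, which encodes the mRNA-destabilising protein tristetraprolin, a target of MK2, read 8.40, 8.84 and 8.45 in knockout-labelled A, B and C, against 9.49, 8.77 and 10.02 in wildtype A, B and C. Wildtype B again lay within the knockout-labelled range. Its difference of -0.86 (SE 0.31, limma adjusted p = 0.915) was -0.21 with wildtype B as the only control and -0.10 with the Gapdh ratio in the model. Lsp1, a leukocyte gene whose product MK2 phosphorylates, stood at -0.49 and turned to 0.14 and 0.20 in the same settings. The part of leukocyte content in its value was not tested. The positive genes with the smallest p were Mknk1, an eIF4E kinase gene, at 0.22 and Atf2, a transcription factor gene, at 0.26, both overlapping between the groups. Atf2 turned to -0.11 with wildtype B as the only control and to -0.21 with the Gapdh ratio in the model.

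Of 8 tested transcripts known to depend on p38 and MK2 in immune and stromal cells, 2 had positive and 6 negative differences, with a median of -0.25. Tnf read 5.57, 5.70 and 5.94 in knockout-labelled A, B and C, against 6.92, 6.15 and 7.21 in wildtype A, B and C. The groups did not overlap, and the difference was -1.02 (SE 0.29, limma adjusted p = 0.915). It was -0.41 with wildtype B as the only control and -0.50 with the Gapdh ratio in the model. Cxcl1, a neutrophil chemokine gene, read 6.54, 6.80 and 6.34 in the arrays labelled p38a-knockout, against 6.96, 7.28 and 7.63 in wildtype. Its groups did not overlap either, and the difference of -0.73 (SE 0.24, limma adjusted p = 0.915) was -0.72 with wildtype B as the only control and -0.38 with the Gapdh ratio in the model. Il1b stood at 0.49, with knockout-labelled B at 8.05 and the other arrays between 5.58 and 6.87. Without that array it turned to -0.22, with wildtype B as the only control it was 1.07 and with the Gapdh ratio in the model 1.61. Of the 4 listed neutrophil markers 2 were tested, S100a8 and S100a9, and their mean was 5.68, 7.87 and 4.94 in knockout-labelled A, B and C, against 5.73, 5.23 and 6.15 in wildtype A, B and C. Their part in the Il1b value was not tested. Egr1, an immediate early transcription factor gene, stood at 0.23, at 0.80 and 0.90 in these settings, and at -0.060 without wildtype B. Il6, Ptgs2 and Il10 lay below the filter.

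**Figure D4:**
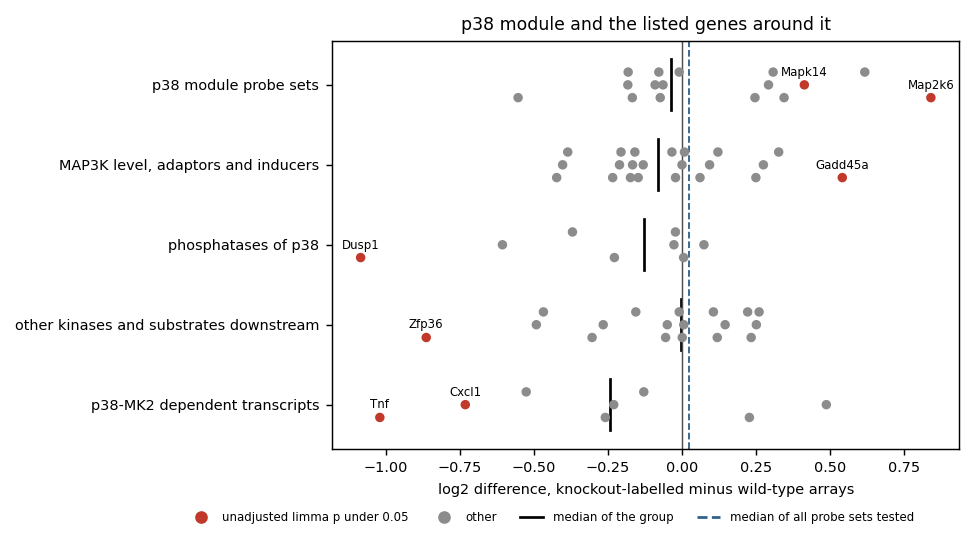
Log2 differences, arrays labelled p38a-knockout minus wildtype arrays, of the 16 member probe sets and of the 56 tested genes listed around them, by role. Each point is 1 probe set, red points have an unadjusted limma p under 0.05, black bars are group medians and the dashed line is the median of all probe sets tested. The red points are Mapk14, Map2k6 and Gadd45a on the right and Dusp1, Zfp36, Tnf and Cxcl1 on the left, and vertical scatter within a row has no meaning.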

How the data were processed

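Each probe set has 1 linear intensity per array in the deposited data, computed by the authors with MAS5 per the submitters' processing notes, from biotin-labelled cRNA of total RNA per the labels' protocols. No source used here gives the MAS5 version or scaling, and trimmed means differed between arrays. Here 16 was added, log2 taken and arrays quantile normalised over all 45101 probe sets. Quantile normalisation removes any overall difference between arrays. Symbols came from the platform annotation, with 34945 probe sets naming 1 gene, 932 several and 9160 none. The comparison used limma 3.58.1 in R 4.3.3 (lmFit, then eBayes with trended variance), leaving out the 64 control probe sets. Benjamini-Hochberg adjusted p-values ran over 27002 probe sets, with 4 residual degrees of freedom. No count depth exists for arrays, and their number limits the precision. Fitting was tested on simulated data.

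Every member probe set was named. From each pathway group up to 2 genes per direction with the smallest p were named, as were the 5 genes nearest to Mapk14. The members, lists and settings were chosen with earlier results of these data known. Alternatives were other scalings, pseudocounts, filters and variance models, array weights, a block for the replicate letter, left-out arrays, wildtype B as the only control and the log2 Gapdh ratio as a covariate. Whether the letters pair the arrays is not known. Deviations of same-letter arrays correlated at -0.07, -0.16 and 0.43, and those of arrays with different letters at -0.46 to 0.54. Deviations within such small groups depend on each other, so these correlations cannot decide whether the arrays are paired.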

Additional observations from a re-analysis of the deposited data

How the results depend on the processing

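No member probe set was called under any alternative run. The lowest limma adjusted p of a member was 0.053, for Map2k6 with array weights, against 0.915 in the main setting. Over all probe sets, limma called 0 in the main setting, 1 on the signals as deposited, 1 with arrays centred on their medians, 1 with the replicate block, 2 with wildtype B as the only control, 74 with array weights and 0 to 2 with each array left out. The other alternatives, namely both pseudocounts, both filters, both variance models and the Gapdh covariate, called 0. Array weights were estimated gene by gene because the default method did not converge, and Tnf was then the 1 pathway gene called, at -1.16. The weights were 4.50, 0.43 and 0.32 for wildtype A, B and C. The weighted wildtype mean, and with it the 74 calls, thus rested mostly on the single array wildtype A. The replicate block changed no call among members or pathway genes. For the brightest Mapk14 probe set the difference ran from 0.35 to 0.94 over all alternatives. Low signal limits Mapk11, Mapk12 and Rps6ka5.

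On the signals as deposited the median of all probe sets was 0.40, and centred on array medians 0.16. At an unadjusted p under 0.05 there were 4248 probe sets higher and 66 lower as deposited and 727 higher and 290 lower after centring, against 460 higher and 492 lower in the main setting. In these settings Map2k3 read 0.39 and 0.16 (1425456_a_at) and 0.39 and 0.15 (1451714_a_at), Mapk13 0.27 and 0.035, Mapkapk2 0.31 and 0.072, Mapkapk3 0.52 and 0.28 (1434815_a_at) and 0.44 and 0.21 (1437494_at), and Mapkapk5 0.35 and 0.11. Of these, Mapkapk3 alone lay above the medians. As deposited, Mapk14 1426104_at read 0.085, Map3k3 0.046 and Traf2 0.0085.

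With wildtype B as the only control, signs turned for Map2k3 1451714_a_at (0.25), Mapk13 (0.24), Mapk14 1416704_at (-0.12), Mapkapk2 (0.040), Mapkapk3 1434815_a_at (0.021), Rps6ka5 1440343_at (-0.18), Atf2 (-0.11), Lsp1 (0.14), Dusp4 (-0.34), Dusp1 (0.029) and Dusp10 (0.28). The Gapdh covariate turned Map2k3 1451714_a_at (0.13), Mapk12 (0.13), Mapk13 (0.36), Mapk14 1416704_at (-0.11), Mapkapk2 (0.081), Mapkapk3 (0.18 and 0.074), Traf2 (0.028), Atf2 (-0.21), Lsp1 (0.20), Dusp4 (-0.36), Dusp1 (0.071) and Dusp10 (0.14). Array weights turned Mapk14 1426104_at (0.11), Mapkapk3 (0.16 and 0.039) and Dusp4 (-0.011).

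With each array left out in turn, signs turned within these ranges: Mapk14 1426104_at -0.26 to 0.094 and 1442364_at -0.54 to 0.93, Mapk13 -0.39 to 0.13, Map2k3 1425456_a_at -0.21 to 0.080, Mapkapk3 -0.098 to 0.094 (1434815_a_at) and -0.16 to 0.0087 (1437494_at), Dusp16 -0.019 to 0.17, Dusp4 -0.18 to 0.18, Egr1 -0.060 to 0.49 and Il1b -0.22 to 0.91. The causes were not tested.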

Other observations

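The Mapk14 probe sets 1442364_at and 1459617_at gave nearly the same deposited signals in the arrays labelled p38a-knockout, 87.6, 116 and 161 on the first and 85.2, 116 and 160.0 on the second. In wildtype A, B and C they read 88.8, 13.4 and 148 on the first and 72.8, 58.3 and 62.6 on the second. The values were noticed after the analysis and no test was made.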
